A study of Drosophila melanogaster with 4 samples.

Results

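The centromere-side part of the left arm of chromosome 3 (3L) of Drosophila melanogaster was described here for H3K9me1, a histone H3 modification in which a lysine of the N-terminal tail carries a single methyl group. The window ran from 21500001 to 24543557 of 3L, the last base of the assembled arm, on FlyBase release 5. Its members were the 20 kb tiles and the enriched clusters with their midpoint in that window. It held 153 of the 5955 tiles of the 5 major arms (2L, 2R, 3L, 3R and X), the last of them cut short by the end of the arm. It also held 221 of the 15404 enriched clusters of ChIP replicate 1, 224 of the 14643 of ChIP replicate 2 and 262 of the 21525 of the series list.

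Both ChIP libraries came from head nuclei of mixed adult flies of the wild-type Oregon-R strain, raised in population cages, and were made with an antibody lot marked as new. Each had 1 input library of the same material, used in the submitters' cluster calls. No treatment, mutant or second tissue was compared. The sexes of the flies and whether the replicates came from separate fly populations were not given in the labels, and a head holds many cell types whose share in the signal cannot be told apart. The SD over 2 libraries may therefore be technical.

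Chromosome arms of Drosophila pass from gene-rich euchromatin into pericentric heterochromatin, a compact and repeat-rich state, as they near the centromere. Higher methylation states of the same lysine, bound by heterochromatin protein HP1, are classical marks of that heterochromatin, and the enzymes Su(var)3-9, Eggless and G9a methylate the residue in flies. The monomethylated state is produced on the way to the higher states.

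The window was chosen on the cluster coverage described here. All values in it are therefore descriptions, and none carries a p-value. Coverage means the percent of bases under enriched clusters. Read counts were not analysed here and depth is unknown, so a stretch without a cluster is a stretch without a call, and repeats that no read could be placed in cannot be told apart from sequence without the mark. Genes and bases in the window were not used here, because no genome of release 5 was at hand and the gene table is on release 6.

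H3K9me1 along 3L rose into a dense block, thinned over the next 500 kb and then stopped. In the 500 kb before the block, at 21500001 to 22000000, clusters covered 41.9% in replicate 1 and 36.4% in replicate 2, a mean of 39.2 ± 3.88% (SD, n = 2). In the block, at 22000001 to 22500000, they covered 69.2% and 64.3%, a mean of 66.8 ± 3.46%. In the 500 kb after it, at 22500001 to 23000000, they covered 49.4% and 46.2%, a mean of 47.8 ± 2.24%. At 23000001 to 23500000 replicate 1 had 0.913% and replicate 2 had 0%. From 23500001 to the end of the arm neither replicate had a cluster. The zones kept this order in each replicate, and the differences between neighbouring zones up to 23500000 were larger than the SD of either zone. Because the zones were chosen with this coverage known, that comparison describes the pattern and does not test it.

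**Figure D1:**
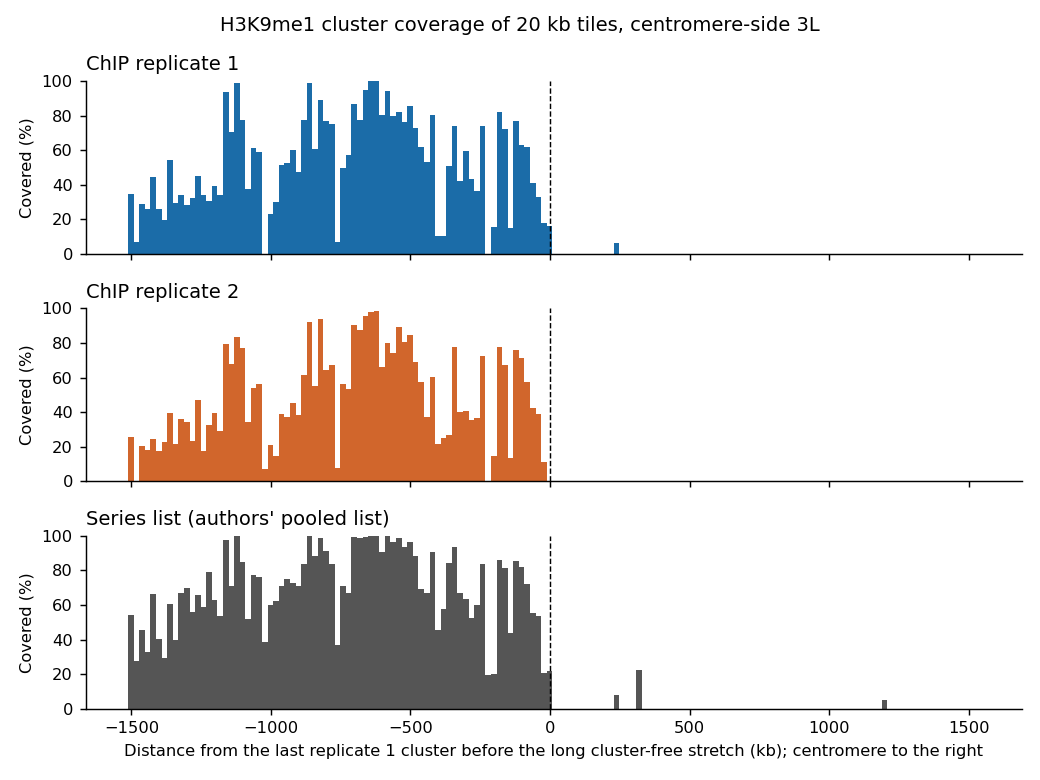
Coverage of each 20 kb tile by enriched clusters (percent of bases, y axis) against distance from the end of the last replicate 1 cluster before the long cluster-free stretch (kb, x axis), in ChIP replicate 1, ChIP replicate 2 and the series list. Coverage builds to tiles at or near 100% about 700 to 600 kb before the dashed line and is at or near 0 after it in both replicates, while the series list has a tile at 22.7% past the line.

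The 5 arms outside the 3 Mb at their centromeric ends gave the level to read these values against. They were covered to 36.9% in replicate 1 and 32.8% in replicate 2, so the block stood at 1.88 and 1.96 times that level, a ratio of 1.92 ± 0.0591 (SD, n = 2). The 500 kb before the block stood at 1.12 ± 0.0187 times and the 500 kb after it at 1.37 ± 0.0490 times the arms. Over the whole window the ratio was 0.727 ± 0.0118, since the window includes the uncovered end. The window makes up 12.4% of the length of 3L and held 8.89% of the covered bases of that arm in replicate 1 and 9.16% in replicate 2. Of the covered bases in the window, 42.9% and 43.8% lay in the block.

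Among the 236 whole windows of 500 kb on the 5 arms, the block had the highest mean coverage. It ranked 1 in replicate 1 and in the series list and 2 in replicate 2, where 3L at 500001 to 1000000 came first with 64.7%. That window, near the telomere of the same arm, had a mean of 66.4 ± 2.35% (SD, n = 2), and differed from the block by less than the SD of either. The median of the 236 windows was 33.9%, with quartiles of 26.9% and 41.9%.

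Densely covered tiles followed the same course. Over all 5 arms, 19.1% of the 20 kb tiles had 50% or more of their bases under clusters in both replicates. In the block it was 17 of 25 tiles (68%), against 6 of 25 before it and 11 of 25 after it. No tile from 23000001 on reached 50% in any list. Over the whole window, 34 of 153 tiles (22.2%) passed, a share close to that of the arms. Tiles without an enriched base in both replicates made up 7.24% of the arms. None lay before or in the block, 1 lay in the 500 kb after it, and 76 of the 78 tiles from 23000001 to the end of the arm were of this kind. In the series list 60.1% of the tiles of the arms reached 50% coverage and 4.15% had no enriched base. There 24 of the 25 tiles of the block reached 50%, and 74 of the 78 tiles from 23000001 on had no enriched base.

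The block was not uniform. Its first 100 kb, from 22000001, held tiles covered to between 23.2% and 60.2% in replicate 1 and between 14.5% and 45.5% in replicate 2, and no tile there reached 50% in both. A tile at 22140001 to 22160000 was covered to 98.7% and 92.1%. It was part of a run of 6 dense tiles at 22120001 to 22240000. The next tile, at 22240001 to 22260000, held 7.08% and 7.53%, the lowest in the block in both replicates. The densest part followed, and it reached 100% and 98.1% at 22360001 to 22380000 and 100% and 98.8% in the tile after that.

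The longest run of tiles that reached 50% in both replicates went from 22280001 to 22560000. It held 14 tiles, or 280 kb, and passed the block's end by 3 tiles. Of the 695 such runs on the 5 arms it was the longest. The next were 200 kb on 3R at 5680001 to 5880000 and 180 kb on 2L at 4200001 to 4380000. Requiring 70% in both replicates left 5 tiles in a row, from 22300001 to 22400000.

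Clusters in the block were wider and closer together than on the arms in both replicates, and also somewhat more frequent there. The block held 69 clusters in replicate 1 and 74 in replicate 2, or 13.8 and 14.8 per 100 kb, and the arms held 13.4 and 12.7 per 100 kb. Median cluster width in the block was 3021 bp and 2370 bp, against 2070 bp and 2000 bp on the arms, a ratio of 1.32 ± 0.194 (SD, n = 2). Clusters at least 5 kb wide made up 30.4% and 27.0% of those in the block and 9.27% and 7.31% of those on the arms. Clusters at least 10 kb wide held 34.2% and 37.8% of the cluster bases in the block, against 6.14% and 4.32% on the arms.

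The gap between neighbouring clusters had a median of 1067 bp in replicate 1 and 840 bp in replicate 2 in the block, and of 2352 bp and 2604 bp on the arms. Gaps of at most 500 bp made up 38.2% and 42.5% of those in the block, against 17.2% and 15.7% on the arms. Joining clusters at most 500 bp apart left 43 clusters in the block in each replicate.

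In the 500 kb after the block the clusters were as frequent, at 14.8 and 16 per 100 kb, and narrower, with medians of 2478 bp and 2271 bp. Only 2 and 1 of them reached 10 kb. In the 500 kb before the block, 15.0 and 14.0 clusters per 100 kb had medians of 2008 bp and 1810 bp, close to those of the arms.

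**Figure D2:**
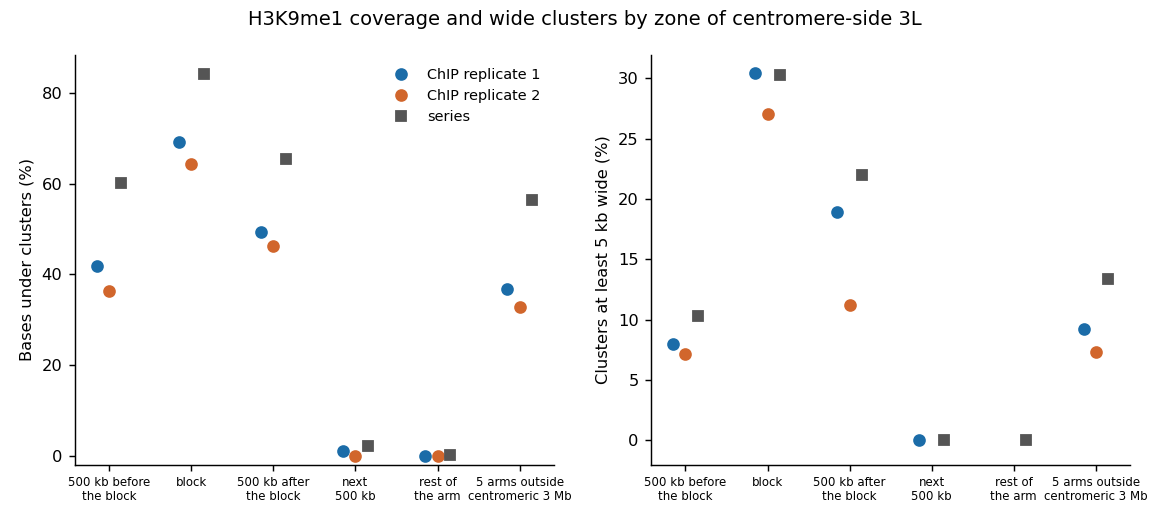
Percent of bases under clusters (left) and percent of clusters at least 5 kb wide (right) in 5 zones of the window and on the 5 arms outside their centromeric 3 Mb, with 1 point for each of the 2 ChIP replicates and 1 square for the series list. The block stands highest in both panels in the replicates, and zones with no cluster have no point on the right.

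The authors gave each cluster a score, on a scale not given in the sources used here. In the block as a whole, scores were close to those of the 5 arms and slightly above those of the rest of 3L. The median was 0.620 in replicate 1 and 0.586 in replicate 2, which differed from the arms by 0.00981 and -0.00393, less than the spread between replicates. On 3L outside its centromeric 3 Mb the medians were 0.581 and 0.565. In replicate 2 the block exceeded that rest of 3L by less than the spread between replicates. In the series list the medians were 0.408 in the block and 0.402 on that rest of 3L. Of the block's clusters, 55.1% and 48.6% scored at or above the median of all clusters in that list, against 42.2% in each replicate on that rest of 3L. The 500 kb before the block had lower medians, at 0.549 and 0.504, and only 34.7% and 24.3% of its clusters reached the list median. In the 500 kb after the block the medians were 0.609 and 0.606.

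Within the block, score went with width. Clusters at least 5 kb wide had a median score of 0.768 in replicate 1 and 0.733 in replicate 2, and narrower ones had 0.572 and 0.535. The same held on the arms, where wide clusters had medians of 0.820 and 0.770. Wide clusters of the block thus scored below the wide clusters of the arms in both replicates, but above them in the series list, at 0.668 against 0.620.

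**Figure D3:**
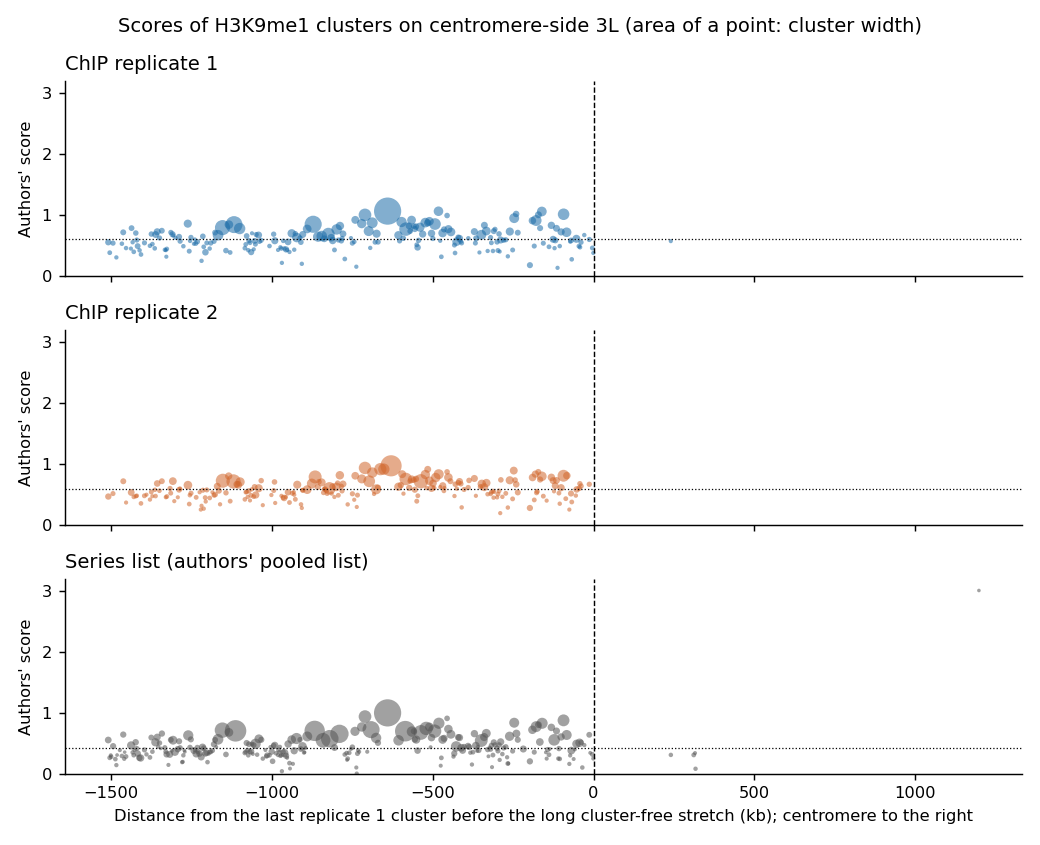
Authors' score of each enriched cluster (y axis) against distance from the end of the last replicate 1 cluster before the long cluster-free stretch (kb, x axis), with point area proportional to cluster width and a dotted line at the median score of all clusters in that list. The widest cluster lies in the densest part before the dashed line, and the series list has a single cluster scored 3.01 far beyond it.

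The widest region shared by both replicates was the series cluster at 22343374 to 22400184, 56.8 kb long with a score of 1.00, which ranked 110 of the 21525 series clusters by score. Replicate 1 called it as 1 cluster of 56.7 kb with a score of 1.06, and replicate 2 called it as 3 clusters that covered 98.1% of it. The same region was also the highest-scoring shared region of the window. It spans the 2 tiles with the highest coverage.

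The other wide shared regions lay on both sides of it. The series cluster at 21881571 to 21917006 was 35.4 kb long and lay before the block, where it was covered to 95.3% in replicate 1 and 90.7% in replicate 2. The one at 22410563 to 22443105 was 32.5 kb long and covered to 93.8% and 82.4%. The one at 22129247 to 22161000 was 31.8 kb long and covered to 96.0% and 81.5%. The one at 22209260 to 22235044 was 25.8 kb long and covered to 92.3% and 89.7%. Each was called as several clusters in both replicates, from 2 to 6 in replicate 1 and from 4 to 7 in replicate 2.

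High scores were also found in narrow regions and near the edge. The series cluster at 22295388 to 22307755 scored 0.940, and each replicate called it as 1 cluster, with scores of 0.999 and 0.934. The one at 22555447 to 22557920 was only 2.47 kb wide and scored 0.911. The one at 22913159 to 22923993, 10.8 kb wide, scored 0.878, with 1.01 in replicate 1 and 0.805 in replicate 2, and it began 98.7 kb before the last cluster of replicate 1. The one at 22761475 to 22769134 scored 0.839. A strongly scored region was thus present in the last 100 kb before coverage stopped. The median score in the last 100 kb up to the end of the last replicate 1 cluster was not high, however. It was 0.560 in replicate 1, 0.589 in replicate 2 and 0.391 in the series list. The medians of all clusters in these lists were 0.610, 0.589 and 0.425.

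The replicates placed clusters alike in the covered zones. Bases shared over bases in either list, the Jaccard index, came to 0.695 before the block, 0.792 in the block and 0.756 after it, against 0.639 on the arms. A list that covers more of a zone overlaps another by position more easily, and this was not corrected for. In the window 185 of 221 replicate 1 clusters (83.7%) touched a replicate 2 cluster, and 203 of 224 replicate 2 clusters (90.6%) touched a replicate 1 cluster. On the arms these shares were 77.8% and 85.6%, so most clusters touched there too. Where 1 cluster of each replicate overlapped only the other, in 131 pairs, their ends differed by a median of 128 bp, against 138.5 bp on the arms. Replicate 1 scored higher by a median of 0.0471 in these pairs. It also scored higher in such pairs on the arms, by 0.0342, and a shared scale of the lists is not known.

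Shared gaps inside the covered zones were short. In the block, 8 stretches of at least 5 kb had no cluster in either replicate, 57.6 kb in all, and the longest was 8.86 kb. Before the block there were 19, 170.7 kb in all, and after it 14, 145.3 kb in all. The longest of those, at 22777770 to 22812494, was 34.7 kb, and series clusters covered 11.3% of it.

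The series list covered more of each zone, as it did of the arms. It covered 60.3% before the block, 84.3% in the block and 65.5% after it, against 56.4% on the arms. The block's ratio to the arms was therefore lower, at 1.495. In the block the series list held 66 clusters, fewer than either replicate, and clusters at least 10 kb wide held 60.1% of their bases. Of the series bases in the block 11.9% lay in neither replicate, against 25.2% on the arms. Of the 66 clusters, 37 touched a cluster in both replicates, and these were 5676 bp wide and scored 0.562 by the median. For the 17 that touched none, the medians were 1398 bp and 0.353. Clusters touching both replicates made up 53.6% of series clusters before the block, 56.1% in it and 60.4% after it. Those touching neither made up 25.8%, 25.8% and 25.3%, so these shares were not particular to the block. They were not taken for the arms.

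Coverage ended at nearly the same place in both replicates. The last 20 kb tile covered to at least 20% ended at 22980000 in replicate 1, with 33.0% covered, and in replicate 2, with 39.1% covered. In the series list a later tile ending at 23340000 reached 22.7%, through 3 clusters of which none touched a replicate cluster. Without the series clusters that touch no replicate cluster, the last such tile of that list ended at 23000000.

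Few and small clusters lay past that tile, and they fixed where calls stopped. The last 3 of replicate 1 before a stretch of at least 100 kb without a cluster were at 22997668 to 22999781, scored 0.595, at 23007301 to 23009185, scored 0.456, and at 23010436 to 23011812, scored 0.374. In replicate 2 the last was at 22997564 to 22999750, scored 0.665, and the 2 before it were at 22971913 to 22974189 and 22968331 to 22970559. The ends of the last clusters, 23011812 and 22999750, were 12.1 kb apart. The series list ended its row of clusters at 23011808, 4 bp from replicate 1.

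The change at that place was abrupt. In the 500 kb before its own last cluster, replicate 1 was covered to 48.2% and replicate 2 to 46.3%, and in the 500 kb after it to 0.260% and 0%. In the 100 kb before it, coverage was 41.6% and 44.2%, and in the 100 kb after it no list had a cluster. By construction no cluster lies in the first 100 kb after this point, so only the level before it and the length of the empty stretch are informative. Counted back from the last replicate 1 cluster in bins of 100 kb, coverage in replicate 1 was 41.6%, 57.5%, 37.0%, 41.3% and 63.7%, and in replicate 2 it was 38.1%, 55.9%, 33.6%, 37.5% and 56.5%. Neither replicate thinned steadily towards the edge over these bins. Within the last 80 kb before 23020000, however, the tiles held 40.9%, 33.0%, 18.1% and 16.3% in replicate 1 and 42.6%, 39.1%, 10.9% and 0% in replicate 2, so the lowest values were the last ones.

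Between fixed neighbouring windows of 500 kb, mean coverage dropped by 47.4 percentage points from 22500001 to 23000000 to the next window. This was the largest step of the 231 on the 5 arms. It was -48.5 points in replicate 1 and -46.2 points in replicate 2. The step into the block from the 500 kb before it, at 27.6 points, ranked 4. Between these in rank were steps on 2R at 1000001 to 2000000 (39.6 points) and at the telomeric end of X (31.2 points).

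Past the last cluster of its main row, replicate 1 held 1 cluster and replicate 2 held 0. The replicate 1 cluster, at 23251321 to 23252621, was 1301 bp wide, the narrowest width found in that list, and scored 0.568. It lay 239.5 kb past the previous cluster. Replicate 1 was thus covered to 0.0849% from 23011813 to the end of the arm, a length of 1531.7 kb, and replicate 2 to 0% after 22999750, a length of 1543.8 kb. The stretch at 23252622 to 24543557, 1290.9 kb long, held no cluster of either replicate. In whole tiles, that is 65 empty tiles in a row from 23260001. It was the longest of 190 such runs on the 5 arms, followed by 320 kb on X at 21520001 to 21840000.

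The series list held 5 clusters in the same stretch, 7082 bp in all, or 0.462%. That at 23251395 to 23252941 lay on the replicate 1 cluster and scored 0.310. Those at 23322405 to 23324174, 23326650 to 23327900 and 23328104 to 23329616 lay within about 7 kb of each other, touched no replicate cluster and scored 0.310, 0.341 and 0.0828. The last, at 24209074 to 24210074, touched no replicate cluster either and lay 1197.3 kb past the last replicate 1 cluster.

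That last cluster carried 3.01, the highest score of the whole series list, and was 1001 bp wide, the narrowest width in that list. Its score was shared exactly with 4 other series clusters, on 2L, 2RHet, 3L and 3R, none wider than 1080 bp. The next score below was 2.88. The highest series score in the window outside it was 1.00.

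**Figure D4:**
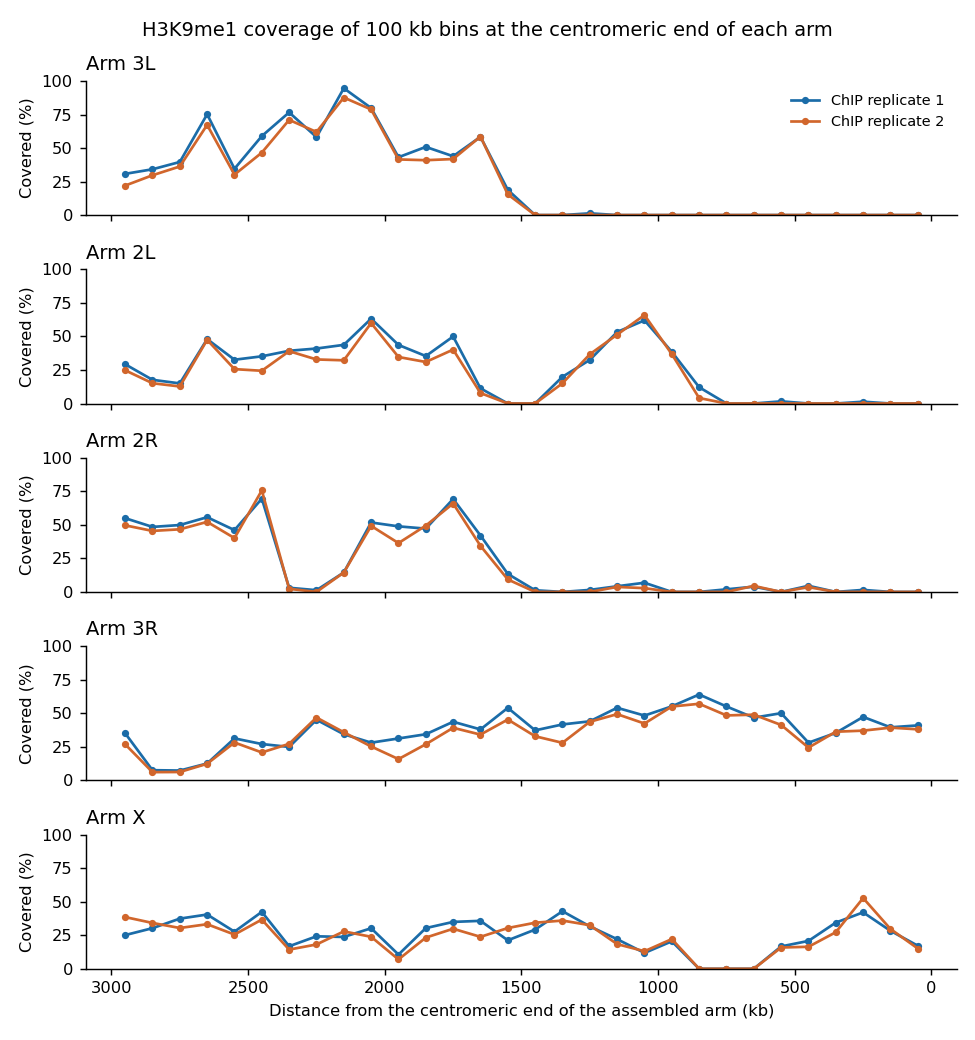
Percent of bases under clusters (y axis) in 100 kb bins against distance from the centromeric end of the assembled arm (kb, x axis), for 3L, 2L, 2R, 3R and X and for each ChIP replicate. On 3L the bins within 1500 kb of the end are at or near 0, and 3R has no such stretch.

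The other arms were set beside 3L by the same rule on 20 kb tiles. On 3L the tile edge lay 1563.6 kb from the end of the assembled arm in both replicates. On 2L it lay 851.5 kb from the end in replicate 1 and 911.5 kb in replicate 2, and coverage in the 500 kb before it was 42.1% and 41.2%, against 51.8% and 49.0% on 3L. On 2R it lay 480 kb from the end in replicate 1, through a single tile, and 1580 kb in replicate 2. On 3R it lay 20 kb and on X 22.8 kb from the end in both replicates. Coverage beyond the edge was 0.524% and 0.140% on 3L and 0.600% and 0.465% on 2L. The empty end of 3L was therefore longer than that of 2L in both replicates. On 2R the tile edge depended on the replicate, but the end was nearly empty in both. The windows of 2R at 1 to 500000, 500001 to 1000000 and 1000001 to 1500000 held 1.22%, 1.17% and 2.77% in replicate 1. In replicate 2 these windows held 0.717%, 0.898% and 1.31%.

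Within 3 Mb of the centromeric end, no other arm reached the highest coverage found on 3L. In bins of 100 kb within the centromeric 3 Mb, the highest on 3L held 94.6% in replicate 1 and 87.7% in replicate 2. On 2L the highest held 63.3% in replicate 1, 2000 to 2100 kb from the end, and 66.0% in replicate 2, 1000 to 1100 kb from the end. On 2R the highest held 69.6% and 75.7%, on 3R 64.05% and 57.1%, and on X 42.9% and 52.8%. Just outside the 3 Mb, 2R at 3000001 to 3500000 was covered to 63.1% in replicate 1 and 57.9% in replicate 2. Its mean of 60.5% ranked 4 among the 236 windows of 500 kb. That window did not adjoin the nearly empty end of 2R. Closer to that end, the bin of 2R at 1700 to 1800 kb held 69.3% in replicate 1 and 66.0% in replicate 2. The 2R window at 1500001 to 2000000 held 44.2% and 39.1%. A densely covered bin near a nearly empty end was therefore not particular to 3L. Over the centromeric 3 Mb as a whole, coverage was 24.3 ± 0.903% (SD, n = 2) for X, 36.1 ± 2.90% for 3R, 22.8 ± 2.10% for 2L and 20.5 ± 1.32% for 2R, beside 25.3 ± 1.68% in the 3L window. The gap between the 3L window and X was smaller than the SD of the 3L window.

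Sequence assigned to 3L heterochromatin but not joined to the arm, 3LHet, was also nearly without clusters. Replicate 1 held 7 clusters there and replicate 2 held 4, over 0.444% and 0.237% of its length, and the series list held 16 over 0.934%.

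One region in the window was typed as depleted by the authors, out of 31 in the series list. It lay at 22899237 to 22900671, was 1435 bp wide and scored -0.0271. A cluster that replicate 1 called as enriched covered 97.4% of it, and replicate 2 had none there. Neither replicate list held a depleted region in the window.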

How the data were processed

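Nuclei of fly heads were profiled by ChIP-seq in 2 ChIP and 2 input libraries. The submitters' processing notes name Bowtie 0.12.7 for the reads. The deposited files hold clusters placed on FlyBase release 5, per the file headers; every cluster has a score given by the authors. The caller, its threshold, the scale of the score and the way the series list was made are not given in the sources used here. Scores were used to describe and rank clusters within a list. Where scores of the 2 replicates were set beside each other, this was description only.

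Clusters typed as enriched were laid on the arms, and percent coverage was computed in 20 kb tiles counted from base 1, in 500 kb zones from 21500001, and on the 5 arms outside their centromeric 3 Mb. Values are means ± SD of 2 ChIP replicates. The series list is the authors' list for the whole series, with no n. It is labelled as pooled in the figures, although how it was made is not given. The edge was placed by 2 rules: the last tile covered to at least 20%, and, added after the data were seen, the last cluster before a stretch of at least 100 kb without one. Named regions were the 5 widest and 5 highest-scoring series clusters touching both replicates, the last 3 clusters of each list before the edge, all clusters beyond the edge and all depleted regions. The members, zones and rules were chosen with earlier results of these data known. Functions were tested on simulated data, where 20 of 20 edges were recovered. The simulated edges were abrupt with no cluster beyond them, so the test cannot tell how the rules handle stray clusters past an edge. Alternatives covered score, width, joining, tiles, thresholds, list and left-out replicates. Python 3.11.15, NumPy 2.4.6, pandas 2.3.3, SciPy 1.17.1 and Matplotlib 3.10.9 were used.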

Additional observations from a re-analysis of the deposited data

How the results depend on the processing

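Of 65 alternative values recomputed, 36 stayed within a set limit and 29 moved further. The limit was 1 SD, and for counts and lengths 1.5 times. For the share of touching clusters it was the exact 95% binomial interval (78.2% to 88.3%). That interval treats neighbouring clusters of 1 library as independent and measures no spread between replicates. The tile edge had an SD of 0, so any shift of its mean counted as moved. The thresholds on score and width remove clusters by construction; the cause of the other shifts was not tested. With clusters at or above the median score of all clusters in their list, block coverage was 52.4%, its ratio to the arms 2.32, its clusters 37, its median score 0.731, the tile edge 22960000, the longest dense run 120 kb and the share of replicate 1 clusters touching replicate 2 69.3%. With clusters at least 2 kb wide these were 59.1%, 2.38, 47.5, 0.688, 22970000 and, for the share, 73.7%. Joining clusters at most 500 bp apart gave 43 clusters. In the series list coverage was 84.3%, the ratio 1.495, the median score 0.408 and the tile edge 23340000. The edge was 23000000 with 10 kb or 50 kb tiles, 23010000 at 10% and 22940000 at 50% tile coverage. Coverage beyond it was then 0.0427% at 10% and 1.29% at 50%. Dense tiles at 70% gave a run of 100 kb. Under 50% reciprocal overlap the shared clusters were 71.9%.

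In settings added after the data were seen, the edge was 23005781 ± 8529 (SD, n = 2) by the last cluster before a cluster-free stretch, with 0.0425% covered beyond it, and 23000000 in the series list without clusters that touch no replicate cluster. Without replicate 1 and without replicate 2, block coverage ran from 64.3% to 69.2%, the ratio from 1.88 to 1.96, clusters from 69 to 74, the median score from 0.586 to 0.620, coverage beyond the edge from 0.140% to 0.524% and the longest run from 300 to 320 kb, with the edge at 22980000 in each. With 2 replicates, those of these values that have an SD cannot move by more than it. The longest run has no SD, and without 1 replicate it can only stay at 280 kb or lengthen. No paired analysis was possible because input libraries served only in the submitters' calling of clusters, and no values of theirs were analysed here. Unknown depth limits every statement on sequence without clusters.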
